A study of Mus musculus with 16 samples.

Results

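Saa1, Saa2, Saa3, Lcn2, Hp, Slpi, Ptx3, S100a8 and S100a9 are 9 genes for acute phase and antimicrobial proteins, out of 47069 genes in the count table. They were picked by symbol as secreted or cytosolic defence proteins that macrophages can make, and they were chosen from the measured values, since the difference between GSI and DMSO was already known for Saa3 and Lcn2. Their values in this comparison are therefore given as a description, without p-values, and the number of members that a fit across all genes calls is given only beside the share of all genes called.

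The cells were bone marrow-derived macrophages (BMMs) from C57BL/6 mice aged 8 to 10 weeks, grown for 7 days in L929-conditioned medium. All BMMs were primed overnight with IFNγ at 10 ng/mL and then activated for 1 hr with Salmonella LPS at 100 ng/mL together with immune complexes (ICs) of ovalbumin and rabbit anti-ovalbumin IgG. The GSI group received the gamma-secretase inhibitor DAPT at 25 μM, which blocks the cleavage that releases the active part of Notch receptors, and the DMSO group received the vehicle at 0.01%. Per the methods, inhibitor or vehicle was present overnight before activation, although legends of other experiments in the study give a shorter pretreatment and which one the sequenced cells had is not stated separately. No group without LPS/ICs was analysed here, so an effect of GSI on resting cells and one on the response to LPS/ICs cannot be told apart. The comparison addresses how blocking gamma-secretase, and with it Notch signaling, changes transcripts of LPS/IC-activated macrophages. Gamma-secretase also cleaves membrane proteins other than Notch.

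Each group had 2 replicates, each sequenced as 4 runs that were summed here, and the totals were 42694655 and 56932059 counts in the vehicle group against 48483661 and 49511733 in the inhibitor group. At this depth the limit that a count of 0 allows (3 counts, counting error only) was 0.0529 to 0.0697 CPM (counts scaled by library size). Nothing states that the replicates came from separate mice or cultures, so p-values measure only the spread between these libraries. In bulk RNA, fewer cells expressing a gene and less RNA per cell cannot be told apart. Macrophage markers were abundant, with a summed level of 13042 and 13265 CPM in DMSO and 10118 and 11034 CPM in GSI for 12 markers.

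Acute phase proteins are plasma and tissue proteins whose synthesis is raised by IL-1, IL-6 and TNFα during infection or injury, through NF-κB, STAT3 and C/EBP transcription factors. Most are made by the liver, but macrophages can make a local set. Serum amyloid A proteins are lipid-binding proteins that act on leukocytes, and in mice Saa3 is the form made mainly outside the liver, including by activated macrophages, whereas Saa1 and Saa2 are the main plasma forms. Lcn2 encodes lipocalin 2, which binds bacterial siderophores and so withholds iron, and Slpi encodes a secreted inhibitor of serine proteases that dampens NF-κB signaling. Hp encodes haptoglobin, which binds free hemoglobin, Ptx3 encodes a long pentraxin that opsonizes microbes, and S100a8 and S100a9 encode the subunits of calprotectin, which binds zinc, manganese and calcium.

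The sequences just before the transcription starts are shown because the members with higher values in GSI can be compared there letter by letter with Saa1, the close relative of Saa3 that had no counts. They are the 250 bases before the RefSeq start on GRCm38.p6, on the coding strand, which is the minus strand for all 4 genes. Capitals mark matches to the motif letters given after them.
Saa3, chr7:46715677-46715926: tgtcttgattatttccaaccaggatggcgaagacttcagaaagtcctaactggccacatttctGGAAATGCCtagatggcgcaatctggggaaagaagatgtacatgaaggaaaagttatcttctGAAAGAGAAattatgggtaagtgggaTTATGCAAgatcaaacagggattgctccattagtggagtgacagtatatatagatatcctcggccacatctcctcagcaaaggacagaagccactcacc
Saa1, chr7:46742981-46743230: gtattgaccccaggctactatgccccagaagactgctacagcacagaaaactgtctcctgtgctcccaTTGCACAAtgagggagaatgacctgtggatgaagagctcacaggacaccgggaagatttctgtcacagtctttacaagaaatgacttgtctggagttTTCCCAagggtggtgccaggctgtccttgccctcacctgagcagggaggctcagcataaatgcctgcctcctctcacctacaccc
Lcn2, chr2:32387740-32387989: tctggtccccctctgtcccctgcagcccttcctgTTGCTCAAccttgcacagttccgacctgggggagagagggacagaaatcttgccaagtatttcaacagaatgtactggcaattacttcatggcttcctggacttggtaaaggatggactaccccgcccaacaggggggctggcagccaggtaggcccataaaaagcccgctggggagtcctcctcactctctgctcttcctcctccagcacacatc
Slpi, chr2:164356508-164356757: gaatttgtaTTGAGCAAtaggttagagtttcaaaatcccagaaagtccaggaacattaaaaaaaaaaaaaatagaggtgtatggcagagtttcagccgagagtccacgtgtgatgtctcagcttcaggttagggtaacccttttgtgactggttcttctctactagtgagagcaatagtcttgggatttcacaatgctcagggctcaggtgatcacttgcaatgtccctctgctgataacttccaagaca

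The letters of 6 motifs were searched on both strands in windows from 250 bases before to 50 bases after each start, which were found for 8 members, Hp having no entry. In Saa3 the capitals mark, from 5′ to 3′, an NF-κB match (GGNNTTNCC, read on the other strand) at -187 to -179, an interferon-stimulated response element match (ISRE, GAAANNGAA) at -125 to -117 and a C/EBP match (TTNNGCAA) at -99 to -92 from the start. Those 3 matches do not overlap one another. In Lcn2 the capitals mark a C/EBP match at -216 to -209, and in Slpi a C/EBP match at -241 to -234. In Saa1 they mark a C/EBP match at -182 to -175 and an RBPJ match (TGGGAA, read on the other strand) at -85 to -80. RBPJ is the DNA-binding factor of canonical Notch signaling.

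The C/EBP letters were in 7 of the 8 members' windows, all but S100a8, and in 10.8% of all 32851 RefSeq promoter windows. The NF-κB letters were in Saa3 and Ptx3, and in 16% of all windows. The ISRE letters were in Saa3 alone among the 8 and in 8.56% of all windows, and the RBPJ letters were in Saa1 and S100a9 and in 25.6% of all windows. Neither the STAT letters (TTCNNNGAA, 8.3% of all windows) nor the AP-1 letters (TGANTCA, 7.81%) were found in a member's window. A match describes letters only and is not a binding site. Saa1 and Saa2 were 96.0% identical over the aligned bases of their windows and Saa1 and Saa3 61.0%.

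Saa3 lies on chromosome 7 of GRCm38 (46711998 to 46715700, minus strand), in a cluster with Saa4, Saa1 (46740497 to 46742980, minus strand) and Saa2 (46751790 to 46754313, plus strand). Saa3 was counted 391 and 547 times with DMSO and 5394 and 5073 times with GSI. These were 9.09 and 9.64 CPM in DMSO against 112 and 103 CPM in GSI, so the groups lay far apart and the libraries within each group close together. The mean was 9.36 ± 0.391 CPM in DMSO and 107 ± 6.26 CPM in GSI (SD, n = 2), an 11.4-fold higher level and a log2 fold change of 3.51 with a standard error (SE) of 0.0855. With each library left out in turn the log2 fold change ran from 3.45 to 3.57. The single runs gave 90 to 147 counts in DMSO and 1236 to 1418 counts in GSI.

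This was the highest log2 fold change among the 10957 tested genes with a mean of at least 1 CPM, and the fourth highest among all 13211 tested genes. Per length of mRNA, scaled to the same sum in each library (TPM), Saa3 was at 36.2 and 37.8 in DMSO and 417 and 386 in GSI. Its level exceeded that of 79.9% and 81.7% of the detected genes with DMSO and of 97.2% and 97.1% with GSI.

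Saa1 and Saa2 had 0 counts in all 4 libraries. Against the limit of 3 counts per library, the Saa3 level in TPM was at least 143-fold and 200-fold higher than that of Saa1 with DMSO and at least 1973-fold and 1856-fold higher with GSI. For Saa2 the corresponding bounds were at least 153-fold and 214-fold in DMSO and at least 2112-fold and 1987-fold in GSI. Saa4, the constitutive member of the cluster, also had 0 counts in all libraries. No serum amyloid A transcript other than Saa3 was detectable at this depth.

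Reads could be told apart between these paralogs by sequence. The Saa3 mRNA was 74.0% identical to Saa1 and 72.4% to Saa2 over aligned bases, whereas Saa1 and Saa2 were 94.4% identical to each other. All 75-base stretches of the Saa3 mRNA were unique among annotated transcripts of other genes, as were 95.3% of those of Saa1 and 99.0% of those of Saa2. The read length of the libraries was not used for this. The primer pair that the study used to measure Saa3 by qPCR is shown because it matches the detected paralog and not the others.
Saa3 forward primer: aactatgatgctgcccggag
Saa3 reverse primer: gctccatgtcccgtgaactt

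Both primers matched the Saa3 mRNA with 0 mismatches and enclosed 98 bases of it. The best place for the forward primer had 3 mismatches in Saa1 and 2 in Saa2, and that for the reverse primer 7 and 8.

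**Figure D1:**
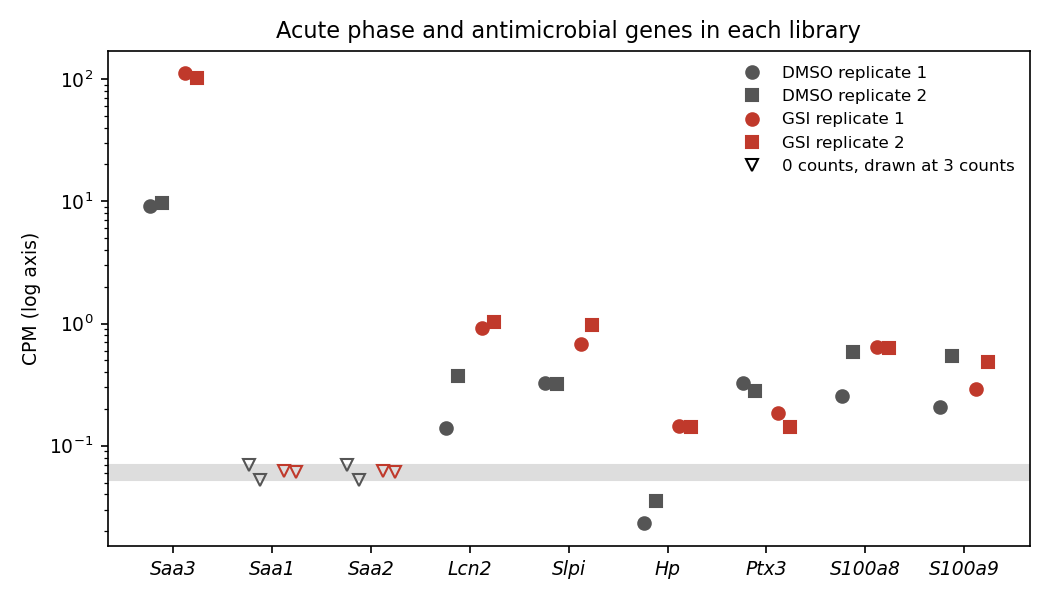
Level of each of the 9 genes in each library in CPM on a log axis (grey, DMSO, and red, GSI, with a circle for replicate 1 and a square for replicate 2, and open triangles for 0 counts drawn at the level of 3 counts, whose range is the grey band). Saa3 lies near 9 CPM in DMSO and above 100 CPM in GSI, all other genes lie near or below 1 CPM, and Saa1 and Saa2 have no counts.

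Lcn2 (chromosome 2, 32384633 to 32388252, minus strand) had 6 and 21 counts with DMSO and 44 and 51 with GSI. The levels were 0.140 and 0.370 CPM in DMSO and 0.910 and 1.03 CPM in GSI, and the groups did not overlap. The log2 fold change was 1.85 (SE 0.357), a 3.59-fold higher level in GSI. The DMSO libraries differed from each other by 2.65-fold (95% exact counting interval 1.04 to 8.04), and DMSO replicate 2 decided the size of the change, since the log2 fold change was 2.77 without it and 1.38 without DMSO replicate 1. Even in GSI, Lcn2 stayed near 1 CPM, far under Saa3.

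Slpi (chromosome 2, 164354070 to 164389095, minus strand) had 14 and 18 counts in DMSO and 33 and 48 in GSI. The levels were 0.325 and 0.317 CPM in DMSO and 0.683 and 0.972 CPM in GSI, without overlap. Its log2 fold change was 1.36 (SE 0.333), with a range of 1.08 to 1.59 when 1 library was left out. The Slpi gene holds the microRNA gene Mir7678 on the same strand, which had 0 counts in all libraries.

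Hp (chromosome 8, 109575128 to 109579172, minus strand) was barely detected, with 1 and 2 counts in DMSO and 7 and 7 counts in GSI, and it did not enter the fit. Over each group, the ratio of GSI to DMSO was 4.76 with an exact counting interval of 1.33 to 25.9. The DMSO values were at or under the limit of 3 counts and the GSI values above it, but at such counts the size of the difference is poorly set.

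Ptx3 (chromosome 3, 66219910 to 66225805, plus strand) went the other way, with 14 and 16 counts in DMSO and 9 and 7 in GSI. The levels were 0.325 and 0.282 CPM in DMSO and 0.186 and 0.142 CPM in GSI. The groups did not overlap, but the log2 fold change of -0.87 had an SE of 0.470. The ratio over the summed counts was 0.544 with an exact counting interval of 0.277 to 1.03, so the difference was within counting error.

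S100a8 (chromosome 3, 90668978 to 90670035, plus strand) had 11 and 33 counts in DMSO and 31 and 31 in GSI. The levels were 0.256 and 0.582 CPM in DMSO and 0.641 and 0.628 CPM in GSI, so DMSO replicate 2 lay just under both GSI libraries and DMSO replicate 1 well under them. The log2 fold change was 0.54 (SE 0.355), and it was 1.30 without DMSO replicate 2 and 0.12 without DMSO replicate 1. Thus 1 library decided how much higher S100a8 looked in GSI.

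S100a9 (chromosome 3, 90692632 to 90695721, minus strand), the partner subunit, had 9 and 31 counts in DMSO and 14 and 24 in GSI. The levels of 0.209 and 0.546 CPM in DMSO enclosed those of 0.290 and 0.486 CPM in GSI. Its log2 fold change was -0.03 (SE 0.425), and leaving out 1 library moved it between -0.49 and 0.88.

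Lcn2, S100a8 and S100a9 shared the split between the DMSO libraries. DMSO replicate 2 exceeded replicate 1 by 2.28-fold for S100a8 (interval 1.12 to 4.99) and by 2.61-fold for S100a9 (interval 1.21 to 6.24), beside the 2.65-fold for Lcn2. Saa3 (1.06-fold, interval 0.930 to 1.21) and Slpi (0.975-fold, interval 0.458 to 2.12) did not show it. All 3 genes are abundant in neutrophils. Low-count genes of other lists also differed between DMSO replicates 1 and 2. Hpx (0.256 and 0.546 CPM) and Ccr7 (0.279 and 0.494 CPM) were higher in replicate 2, and Cdh5 (0.465 and 0.282 CPM) was lower. The share of all genes with such a split was not counted. The 15 neutrophil markers left when Csf3r, which macrophages also express, is set aside summed to 0.906 and 1.15 CPM in DMSO and 1.05 and 0.972 CPM in GSI, so that DMSO replicate 2 had the highest sum. Elane, Prtn3, Retnlg and Fcnb, which define neutrophils and their precursors, had 0 counts in every library, and Ly6g had 1 count in DMSO replicate 1 only. Other markers of the list were detected. In DMSO replicates 1 and 2, Cebpe had 14 and 27 counts, Mmp8 12 and 15, Ltf 5 and 8, Ngp 3 and 7 and Cd177 0 and 5. In CPM, 5 of the 15 were higher in DMSO replicate 2 than in replicate 1, 5 were lower and 5 were at 0 in both. The part of such cells in the split was not tested.

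**Figure D2:**
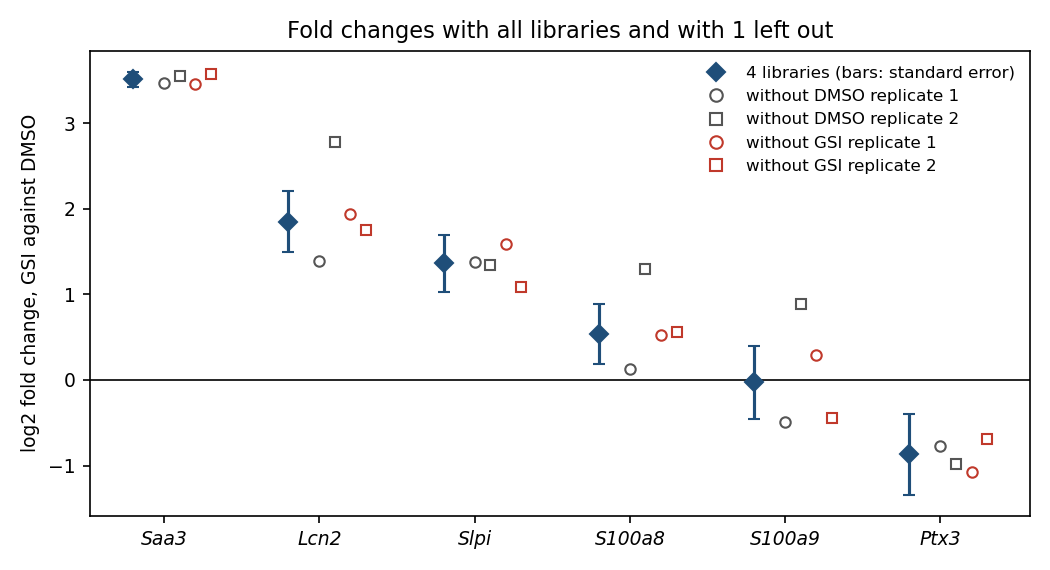
Log2 fold change of GSI against DMSO for the 6 genes that passed the filter on low counts (blue diamonds, all 4 libraries, with bars of 1 SE, and open symbols for the value with 1 library left out). Saa3 stays between 3.45 and 3.57, whereas Lcn2 spans 1.38 to 2.77 and S100a9 takes both signs.

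Of the 9 members, 6 passed the filter on low counts, and Saa1, Saa2 and Hp did not. Saa3, Lcn2 and Slpi, 3 of the 6, had a false discovery rate (FDR) under 0.05 with a higher level in GSI, where 19.0% of all tested genes were called higher and 21.9% lower. Of these, Saa3 and Lcn2 also passed a log2 fold change of 1.5, as did 0.742% of all tested genes. The number of members with an FDR under 0.05 was 2 without GSI replicate 2 and 4 without DMSO replicate 2. The same contrast led to the choice of the members, so nothing is read from these counts.

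In the GSI libraries the order of the levels per length was Saa3, then S100a8 at 2.74 and 2.70 TPM, Lcn2 at 2.06 and 2.36 TPM, Slpi at 1.62 and 2.32 TPM, S100a9 at 1.16 and 1.96 TPM, Hp at 0.223 and 0.220 TPM and Ptx3 at 0.203 and 0.156 TPM. Lcn2 and Slpi overlapped, as did Slpi and S100a9, and S100a8 and Lcn2 did not but rest on 31 and 31 against 44 and 51 counts. In DMSO the order after Saa3 was S100a8 at 1.16 and 2.60 TPM, S100a9 at 0.891 and 2.29 TPM, Slpi at 0.821 and 0.787 TPM, Lcn2 at 0.337 and 0.879 TPM and Ptx3 at 0.379 and 0.323 TPM. There S100a8 and S100a9 overlapped, as did Slpi and Lcn2, and Lcn2 and Ptx3. Saa3 made up 81.9% to 97.5% of the counts of the 9 genes in a library.

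**Figure D3:**
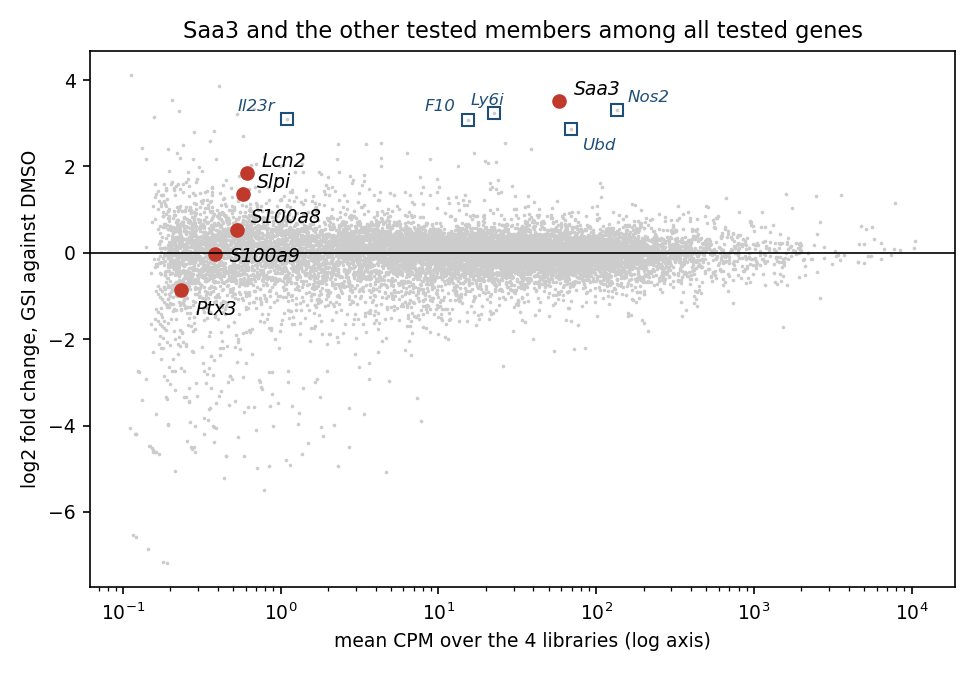
Log2 fold change of GSI against DMSO and mean level in CPM (log axis) of all 13211 tested genes (grey), with the 6 tested members in red and the 5 genes whose profile was nearest to that of Saa3 as open blue squares. Saa3 has the highest fold change among genes above 1 CPM, and the other members lie among genes of low level.

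Among the upstream regulators of the acute phase response, more fell than rose. Of 33 listed cytokines, receptors and transcription factors, 29 were tested, of which 3 rose, 13 fell and 13 did not pass, where 19.0% of all tested genes rose and 21.9% fell, with a median log2 fold change of -0.11 against 0.01 over all genes tested (edgeR quasi-likelihood test, Benjamini-Hochberg FDR over all genes, as for all FDR values here). Of the 3 that rose, 1 also passed by DESeq2. IL-10, IL-1β, the LIF receptor and oncostatin M fell most. Il10 was at 309 and 357 CPM in DMSO and 79.6 and 110 CPM in GSI (log2 fold change -1.81, SE 0.109, FDR 1.11e-10). Il1b, a main inducer of acute phase genes, was at 2491 and 2229 CPM in DMSO and 758 and 686 CPM in GSI (-1.71, SE 0.0823, FDR 4.81e-12).

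Lifr fell by 1.21 on the log2 scale (SE 0.105, FDR 1.47e-08). Osm, an IL-6 family cytokine, fell by 1.08 (SE 0.0999, FDR 3.89e-08). Both are parts of signaling through the shared receptor chain gp130. Il1a, the other IL-1 cytokine, fell by 1.08 (SE 0.0720, FDR 4.19e-10). The inducers Il6 and Tnf did not pass. Il6 was at 34.9 and 27.7 CPM in DMSO and 34.6 and 29.7 CPM in GSI (0.04, SE 0.0991, FDR 0.762), and Tnf was at 7315 and 7691 CPM in DMSO and 8124 and 7783 CPM in GSI (0.08, SE 0.0757, FDR 0.400). Thus Saa3 was higher in GSI beside lower Il1b, Il1a and Il10, and beside Il6 and Tnf that did not pass the test.

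Among the transcription factors, Cebpg rose (log2 fold change 0.69, SE 0.0796, FDR 7.43e-07). Cebpd, a C/EBP factor induced in the acute phase, was at 4.09 and 3.58 CPM in DMSO and 5.87 and 4.70 CPM in GSI and passed (0.47, SE 0.142, FDR 0.0122), but the call was lost without DMSO replicate 2, without GSI replicate 1 and by DESeq2. Cebpb showed 0.10 (SE 0.105, FDR 0.459) and rested on the GSI libraries, with -0.17 without GSI replicate 1 and 0.33, past the FDR, without GSI replicate 2. Exons of Cebpd overlap those of Spidr by 562 bases and those of Cebpb overlap Tmem189 by 312 bases on the opposite strand, and the strand setting of the counting is not given in the sources used here, so these counts may hold reads of the partner genes.

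Stat3, the main effector of IL-6 signaling, was 0.21 lower on the log2 scale (SE 0.0715, FDR 0.0221), a call that was lost when any 1 of DMSO replicate 1, DMSO replicate 2 and GSI replicate 1 was left out. Socs3, its feedback inhibitor, showed -0.01 (SE 0.0732, FDR 0.927). Nfkbiz, which encodes the inducible NF-κB cofactor IκBζ required for Lcn2 induction, showed -0.11 (SE 0.0760, FDR 0.259). Nfkb1, which encodes p50, fell by 0.44 (SE 0.0701, FDR 4.2e-05), and Rela showed -0.01 (SE 0.0686, FDR 0.911). The values for Nfkb1, Rela, Cebpg and Il1a were added after the lists' values were seen.

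**Figure D4:**
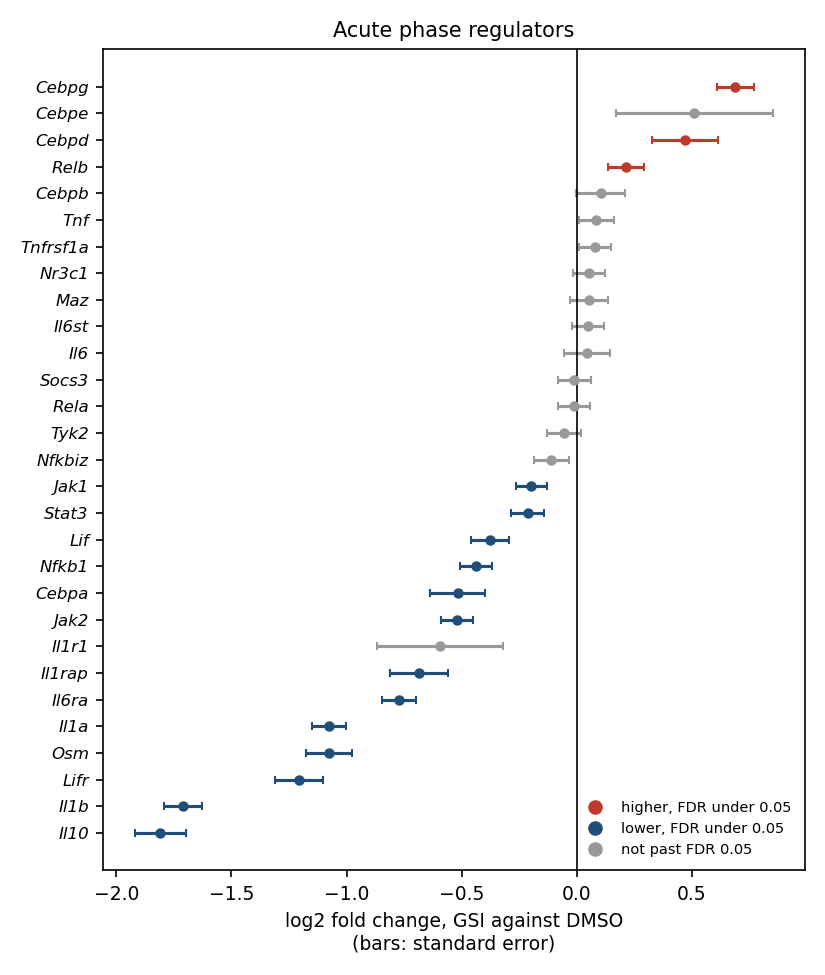
Log2 fold change of GSI against DMSO, with bars of 1 SE, for the 29 tested regulators of acute phase genes (red, higher, and blue, lower, at an FDR under 0.05, and grey, not past it). Il10 and Il1b lie lowest at -1.81 and -1.71, Il6, Tnf, Socs3 and Rela lie near 0, and Cebpg, Cebpd and Relb are the 3 that were higher.

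Of 35 other acute phase proteins, 34 were in the table, 14 had 0 counts in every library, among them the fibrinogen genes Fga, Fgb and Fgg and serum amyloid P (Apcs), and 11 were tested. Of the 11, 7 rose, 2 fell and 2 did not pass, beside the 19.0% and 21.9% of all tested genes, with a median log2 fold change of 0.84. Complement factor B (Cfb), part of the alternative pathway convertase, rose from 8.11 and 7.72 CPM in DMSO to 31.0 and 35.4 CPM in GSI (2.07, SE 0.0948, FDR 2.06e-12). C3, the central complement component, rose from 1441 and 1406 CPM to 3642 and 3410 CPM (1.31, SE 0.0760, FDR 6.45e-11).

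Serpina3g, a protease inhibitor, rose by 1.08 on the log2 scale (SE 0.0714, FDR 3.6e-10), with the reservation that the Serpina3 genes are near-identical copies between which reads can be split. The metallothionein Mt2 rose by 1.07 (SE 0.0763, FDR 9.8e-10), and ceruloplasmin (Cp), a copper-carrying ferroxidase, by 0.84 (SE 0.169, FDR 0.000497), though its exons overlap those of Hps3 on the opposite strand by 108 bases. C4b fell by 0.85 (SE 0.0811, FDR 5.84e-08), and it too has a near-identical copy. The LPS coreceptor Cd14 fell by 0.64 (SE 0.0787, FDR 1.6e-06). The list thus moved in both directions, and its complement genes did too.

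Of 24 receptors and partners of the member proteins, 20 were tested, of which 2 rose and 10 fell, beside 19.0% and 21.9% of all tested genes, and 8 did not pass, with a median log2 fold change of -0.31. Fpr2, a chemotactic receptor that binds serum amyloid A, was at 5.69 and 4.99 CPM in DMSO and 13.5 and 14.8 CPM in GSI (1.42, SE 0.109, FDR 3.19e-09). Lrp1, an endocytic receptor, fell by 1.32 (SE 0.0729, FDR 3.24e-11). Hmox1, which degrades heme, rose by 0.98 (SE 0.0796, FDR 6.21e-09).

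The scavenger receptor Cd36 fell by 0.91 (SE 0.0769, FDR 1.01e-08). Both Toll-like receptors that bind serum amyloid A or calprotectin fell, Tlr2 by 0.37 (SE 0.0792, FDR 0.000954) and Tlr4 by 0.26 (SE 0.0798, FDR 0.0143), the latter call being lost without GSI replicate 1. Cd163, the receptor for haptoglobin bound to hemoglobin, had 18 and 15 counts in DMSO and 2 and 1 in GSI, so it was near the limit of detection in GSI. Tlr2, Tlr4 and Cd163 were picked after their values were seen. The proposed Lcn2 receptor Slc22a17 had 2 and 6 counts in DMSO and 3 and 4 in GSI.

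**Figure D5:**
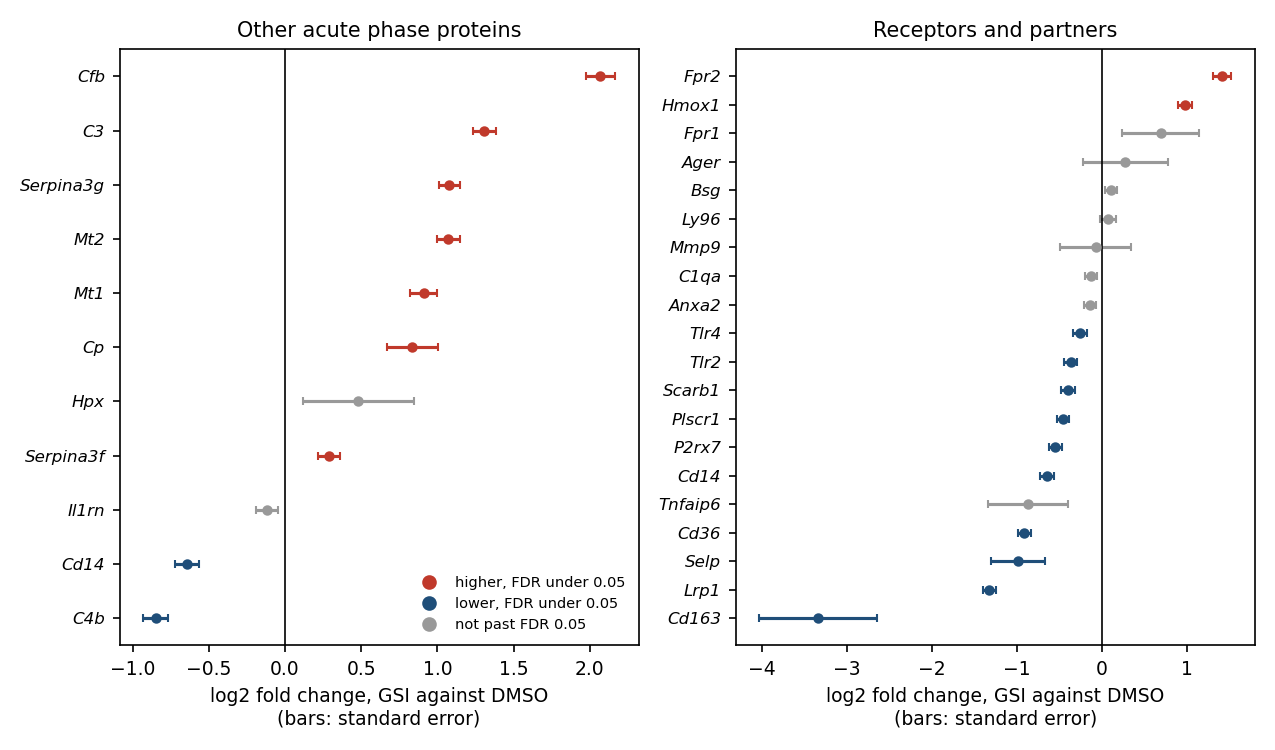
Log2 fold change of GSI against DMSO, with bars of 1 SE, for the tested genes among other acute phase proteins (left, 11 genes) and among receptors and partners of the member proteins (right, 20 genes), coloured by the FDR as red for higher, blue for lower and grey for not past 0.05. Cfb and C3 lead on the left at 2.07 and 1.31, and on the right Fpr2 and Hmox1 are higher and 10 genes lower.

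Of 27 other antimicrobial proteins, 15 were tested, of which 5 rose and 4 fell, beside the 19.0% and 21.9% of all tested genes, and 6 did not pass, with a median log2 fold change of 0.04. Nos2, which makes nitric oxide, was at 23.8 and 25.9 CPM in DMSO and 250 and 240 CPM in GSI (3.30, SE 0.0790, FDR 7.91e-17). Rnase4 fell by 0.78 (SE 0.0826, FDR 2.34e-07). Cyba, a subunit of the phagocyte oxidase, rose by 0.75 (SE 0.0738, FDR 8.36e-08), and Wfdc17, a relative of Slpi, by 0.30 (SE 0.0746, FDR 0.00305). The number past the FDR was 4 without DMSO replicate 2, and the call for Wfdc17 was among those lost.

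Of 35 family relatives of the members, 10 were tested, of which 2 rose and 2 fell, shares near the 19.0% and 21.9% of all tested genes, and 6 did not pass, with a median log2 fold change of -0.11. The S100 genes that fell were S100a10, at -0.27 (SE 0.0694, FDR 0.00344), and S100a4, at -0.26 (SE 0.0689, FDR 0.00448). S100a1 passed at 0.26 (SE 0.0961, FDR 0.0390), but its groups overlapped and the call was lost without DMSO replicate 2, without GSI replicate 1 and by DESeq2. Without DMSO replicate 2, 2 of the 10 passed, and the call of Wfdc17 was also lost. Of all 35 relatives, 16 had 0 counts in every library.

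Iron and heme genes were listed because lipocalin 2 and haptoglobin bind siderophores and hemoglobin. All 14 were tested, 6 rose and 1 fell, beside 19.0% and 21.9% of all tested genes, and 7 did not pass, with a median log2 fold change of 0.24. The ferritin chains rose, Fth1 by 1.16 (SE 0.0886, FDR 2.77e-09) and Ftl1 by 0.59 (SE 0.0825, FDR 8.16e-06), with the reservation that both have many processed copies. The iron transporter Slc11a2 rose by 0.53 (SE 0.0834, FDR 3.73e-05), and Hmox1 is given above.

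Markers of other cells were measured in the same libraries. Of the 16 neutrophil markers, 3 were tested and 1 rose, where 19.0% of all tested genes rose and 21.9% fell, namely the G-CSF receptor Csf3r, at 60.7 and 62.5 CPM in DMSO and 109 and 115 CPM in GSI (0.86, SE 0.0710, FDR 7.51e-09). With it the list summed to 61.7 and 63.6 CPM in DMSO and 110 and 116 CPM in GSI. Of 7 monocyte markers 6 were tested and 3 fell, beside 21.9% of all tested genes, and the sum of the list was 162 and 154 CPM in DMSO and 78.6 and 89.8 CPM in GSI. Ccr2 fell by 1.80 (SE 0.0871, FDR 4.9e-12) and Plac8 fell by 0.73 (SE 0.0776, FDR 2.31e-07), while the call of Vcan (-0.43) was lost without either DMSO replicate, which left 2 markers past the FDR in each case.

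Of the 12 macrophage markers, 1 rose (Mertk, 0.64, SE 0.0782, FDR 1.62e-06), 9 fell and 2 did not pass, beside 19.0% and 21.9% of all tested genes, with the 2 lowest values for the mannose receptor Mrc1, which fell by 1.30 (SE 0.101, FDR 3.54e-09), and for Msr1, which fell by 0.73 (SE 0.0699, FDR 6.57e-08). Among 6 dendritic cell markers, 3 were tested and Xcr1 fell by 0.42 (SE 0.135, FDR 0.0175), a call lost without DMSO replicate 1 or GSI replicate 2. Of 7 stromal and endothelial markers, 2 were tested and Kdr rose by 1.63 (SE 0.0878, FDR 2.28e-11), while the fibroblast collagen genes Col1a1 and Col1a2 had at most 1 count in a library. None of 8 lymphocyte, 5 mast cell and basophil and 6 hepatocyte markers reached the filter, their sums being at most 0.186, 0 and 0.0414 CPM. The part of any of these cells in the values of the members was not tested. Saa3 averaged 9.36 CPM in DMSO and 107 CPM in GSI, and hepatocyte, lymphocyte and mast cell markers were at or near 0 there. The stromal and endothelial list summed to 11.2 and 10.7 CPM in DMSO and 33.8 and 31.3 CPM in GSI. The neutrophil list summed to 61.7 and 63.6 CPM in DMSO and 110 and 116 CPM in GSI. The monocyte, macrophage and dendritic cell sums were lower in GSI.

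Genes next to the members on the chromosome were compared because the rule did not use them. Of 56 genes within 100 kb of a member, 24 were tested, of which 6 rose and 6 fell, beside 19.0% and 21.9% of all tested genes, and their median log2 fold change was 0.06. The nearest neighbour of Saa3, Saal1, at a distance of 1318 bp, was at 5.23 and 4.28 CPM in DMSO and 4.97 and 5.02 CPM in GSI (0.08, SE 0.134, FDR 0.671). Hps5 fell by 0.28 (SE 0.0783, FDR 0.00642), Gtf2h1 rose by 0.25 (SE 0.0819, FDR 0.0179), and Sergef showed 0.26 (SE 0.106, FDR 0.0587). The call of Hps5 was lost without GSI replicate 1 and that of Gtf2h1 without DMSO replicate 2 or GSI replicate 1. Hps5, the tested neighbour of Saa3 that differed most, did so by 1.22-fold, against 11.4-fold for Saa3.

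Near Lcn2, Ptges2, which encodes a prostaglandin E synthase, rose by 0.47 (SE 0.104, FDR 0.00105), 1110008P14Rik rose by 0.27 (SE 0.0931, FDR 0.0270) and Naif1 fell by 0.44 (SE 0.139, FDR 0.0145). The other tested neighbours did not pass, with log2 fold changes of 0.03 for Ciz1, 0.17 for Slc25a25, 0.20 for Swi5, -0.17 for Golga2 and 0.53 for Dnm1. Among these, the call of Ptges2 held in every alternative, that of 1110008P14Rik was lost without any 1 of DMSO replicate 1, DMSO replicate 2 and GSI replicate 1, and that of Naif1 without DMSO replicate 2 or GSI replicate 2. DESeq2 called neither of the last-named genes. Of all genes near members, 12 passed with all libraries, 7 without DMSO replicate 2 and 6 by DESeq2, and the highest number under any alternative was 18.

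The genes whose centred log2 CPM over the 4 libraries was most like that of Saa3 were Nos2, Ly6i, F10, Il23r and Ubd, at root mean square distances of 0.107, 0.168, 0.222, 0.306 and 0.335 among 10957 genes. Ly6i, a surface protein gene, was at 4.09 and 4.46 CPM in DMSO and 38.5 and 42.6 CPM in GSI, and F10, which encodes coagulation factor X, at 3.18 and 3.33 CPM in DMSO and 29.5 and 25.9 CPM in GSI. Il23r, a chain of the IL-23 receptor, was at 0.186 and 0.264 CPM in DMSO and 2.01 and 1.94 CPM in GSI, and the ubiquitin-like gene Ubd at 17.1 and 16.5 CPM in DMSO and 135 and 110 CPM in GSI. The genes most like Lcn2 were Adgrf3, Ccdc154, A130071D04Rik, F7 and Dio2, at distances of 0.203, 0.234, 0.252, 0.282 and 0.285. Of these, Adgrf3 was at 0.511 and 0.987 CPM in DMSO and 2.11 and 2.17 CPM in GSI. It too was higher in DMSO replicate 2 than in replicate 1, which the choice by likeness over all 4 libraries favours. The 4 libraries form 2 groups, so this measure largely follows the difference between GSI and DMSO.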

How the data were processed

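RNA-seq counts were deposited for 16 columns, 4 runs of each of 4 libraries. The authors trimmed adapters with Trimmomatic, aligned the reads with STAR to mm10 and deposited raw HTSeq counts per gene. The submitters' processing notes give STAR version 2.5.0a and list both mm9 and mm10. The strand setting and the treatment of reads with several matches are not given in the sources used here.

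The 4 runs of a library differed by little more than sampling noise, which gives 1 (chi-square per degree of freedom 1.01 to 1.03), and were summed. Groups came from the sample titles. Counts were fitted with edgeR 4.0.16 in R 4.3.3 (filterByExpr, TMM, quasi-likelihood, group only), and FDR was adjusted over 13211 genes. The SE is the log2 fold change over the square root of its F statistic, CPM uses TMM-adjusted library sizes, and TPM divides counts by the length of 1 principal mRNA in GENCODE M21 (GRCm38). The fit was tested on simulated data. Promoter sequences are from RefSeq.

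All members are given. From each list, the 4 genes of largest absolute log2 fold change among those past FDR 0.05 with a mean of at least 1 CPM are named, plus Stat3, Cebpb, Cebpd, Nfkbiz, Il6, Il1b, Tnf, Il10 and Socs3, the 5 profiles nearest to Saa3 and to Lcn2, and the tested genes within 100 kb of either. Genes named besides these were picked after their values were seen. Members and lists were chosen with earlier results of these data known. Acod1 is listed under its older symbol Irg1, and Tf was not found in the table. The values of 1 listed gene are not reported here. Alternatives were RLE size factors, no normalization factors, a filter keeping every gene with a count, a minimum of 10 counts per library, a replicate block, each library left out, and DESeq2 1.42.0.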

Additional observations from a re-analysis of the deposited data

How the results depend on the processing

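The log2 fold changes of Saa3, Lcn2, Slpi, Ptx3 and S100a8 kept their direction under every alternative in which they were tested, and that of S100a9 (-0.03) reversed to 0.034 with the replicate block, 0.012 with DESeq2, 0.88 without DMSO replicate 2 and 0.30 without GSI replicate 1. A minimum of 10 counts in every library removed Lcn2, Ptx3 and S100a9 from the fit. Leaving out 1 library gave 3.45 to 3.57 for Saa3, 1.38 to 2.77 for Lcn2, 1.08 to 1.59 for Slpi, -1.07 to -0.69 for Ptx3, 0.12 to 1.30 for S100a8 and -0.49 to 0.88 for S100a9.

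The number of genes past an FDR of 0.05 with 1 library left out was 4 to 9 for antimicrobial effectors (9 with all libraries), 2 to 5 for family relatives (4), 2 to 3 for monocyte markers (4) and 7 to 11 for neighbours (12). DESeq2 gave 2 monocyte markers, 1 of the 3 regulators called higher, 0 dendritic cell markers (1 with edgeR, and 1 with an unadjusted DESeq2 p under 0.05) and 6 neighbours. A fit with 1 library left out also has fewer libraries, and the causes of these differences were not tested.

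The replicate numbers were not stated to mark a shared batch. The deviations of same-numbered libraries correlated weakly (r = 0.175 over 10957 genes). With only 2 pairs, whether such libraries share more than a number cannot be told. With the replicate block, 3130 genes were called higher and 3314 lower, against 2504 and 2888 without it. Under it 18 neighbours passed (12 without it), 10 higher and 8 lower. Counts under about 50 limit the precision for all members but Saa3.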
